A study of Homo sapiens with 6 samples.

Results

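The metallothioneins are small cysteine-rich proteins that bind zinc, copper and cadmium, and they are described here with the zinc exporter SLC30A1 and the zinc-sensing transcription factor MTF1 in HN5 cells. The set was defined by gene symbol: MT1A, MT1E, MT1F, MT1G, MT1H, MT1M, MT1X, MT2A, MTF1 and SLC30A1. Of these 10 genes, 9 had a named probe, of 20046 named genes on the array, and they carried 12 probes of 47230. MT1A had no probe in the annotation table used here. MT1E, MT1H and SLC30A1 had more than 1 probe, and each gene was represented by its probe with the highest mean over the 6 arrays, so that mean chose the probe and is not itself a finding.

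HN5 cells are an established line from a human squamous carcinoma of the head and neck, and erlotinib blocks the kinase of the epidermal growth factor receptor. RNA of 3 erlotinib-sensitive parental samples and 3 samples of an erlotinib-resistant derivative was measured on Illumina arrays as normalized log2 signal. The resistant line came from the parental one, which was taken through rising erlotinib over 3 months to 12.5 µM and then kept at that concentration for 6 months. The labels name no genetic change in either group, do not say how the parental cells were kept over those months or whether the drug was present at harvest, and describe 1 derived line, so drug, time in culture and the resistant state cannot be told apart. They call the samples biological replicates without saying whether these were separate cultures, so the p-values reflect only how far these samples spread, which may be technical.

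Metallothioneins hold metal ions in clusters of cysteine sulphurs and buffer free zinc in the cytosol and nucleus. When zinc rises, MTF1 binds metal response elements in the promoters of metallothionein genes and of SLC30A1 and activates them, and SLC30A1 (ZnT1) carries zinc out through the plasma membrane. Members of the SLC30 family move zinc out of the cytosol and members of the SLC39 (ZIP) family move it in. Human metallothionein genes lie side by side in a cluster on chromosome 16.

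The background limit of an array was its mode plus 3 SD of the values below the mode, 6.998 to 6.999 on the log2 scale, and 38.9% to 39.0% of probes were above it on each array. A gene was tested when its probe passed on at least 3 of 6 arrays. The correlation over probes was 0.996 to 0.997 between arrays of one group and 0.978 to 0.980 between arrays of the 2 groups. The 7 squamous epithelial markers with a probe were above background on all arrays. All 7 were called lower in the resistant cells, where 27.5% of all genes were. CDH1 among them is a gene of chromosome 16, on the side that holds the metallothionein cluster, where most genes were lower. The 7 markers had a summed linear signal of 25379.6 to 27565.2 in parental and 15926.5 to 16899.5 in resistant cells. The fibroblast markers summed to 991 to 1010 and to 1915 to 1933, with THY1 and PDGFRB at background on all arrays, and the leukocyte markers to 1862 to 2009 and to 3472 to 3812, with PTPRC, CD3E, ITGAM and LYZ at background. In parental cells COL1A1 alone of the summed fibroblast probes was above the background limit, so most of their parental sum is background. Of the 4 fibroblast markers tested all rose, where 26.6% of all genes were called higher. DCN, LUM and COL1A2, by their brightest probes, passed the filter only through their resistant arrays, so these calls follow partly from the filter. The other COL1A2 probe that passed, nearly as bright, differed by -0.06 and was not called (limma adjusted p = 0.430 over all probes). Measured from the background limit of the parental arrays, DCN was at least 5.45-fold and LUM at least 2.34-fold higher. COL1A1 rose from 7.76 to 8.31. Of the 3 leukocyte markers tested only CD68 rose (10.07 to 11.45), and CD14 and CD79A were not called. The endothelial markers summed to 777 to 782 and to 821 to 827, with all but PECAM1 of 7 at background. The part of these marker changes in the values that follow was not tested. Fewer cells of a type and less RNA per cell cannot be told apart in such samples.

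Across all 11050 genes tested, 54.1% were called at an adjusted p threshold of 0.05, 26.6% as higher and 27.5% as lower in the resistant cells. Of the 10 genes of the set, 8 were tested; 4 of these fell (MT1F, MT1E, MT1X and MT1H), 1 rose (SLC30A1) and 3 were not called (MT2A, MT1G and MTF1). MT1H passed the filter only through its parental arrays, so its call follows partly from the filter. The resistant arrays lay wholly below the parental ones for 5 of the 8, where 30.8% of all genes did so, and wholly above for 1, where 29.2% did so.

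MT1F fell the furthest. Its log2 signal was 10.30, 10.23 and 10.32 in the 3 parental samples and 8.14, 8.14 and 8.16 in the 3 resistant samples. The groups lay far apart compared with the spread within them, at 10.28 ± 0.0439 and 8.15 ± 0.0161 (mean ± SD, n = 3 each). The log2 difference was -2.14 (SE 0.0547, limma adjusted p = 2.96e-12), a 4.40-fold lower signal that ranked 16 among the falls of all genes tested.

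MT1E fell 2.36-fold. Its brighter probe read 12.90, 13.11 and 13.04 in parental and 11.68, 11.77 and 11.89 in resistant samples, with no overlap. The difference was -1.24 (SE 0.0712, limma adjusted p = 7.97e-09). The dimmer MT1E probe was above background on the parental arrays only, at 7.05, 7.22 and 7.14 against 6.96, 6.94 and 6.95. Its resistant level is only a limit, so no size of its change is given. Averaging both probes, which mixes in those values at background, gave MT1E a difference of -0.71.

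MT1X fell 2.11-fold. Its signal was 12.25, 12.22 and 12.36 in parental and 11.25, 11.21 and 11.14 in resistant samples, a difference of -1.08 (SE 0.0604, limma adjusted p = 5.83e-09). Every resistant array was about 1 log2 unit below the lowest parental array.

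MT1H was low in parental cells and at background in resistant cells. Its brighter probe read 7.40, 7.46 and 7.36 in parental and 6.81, 6.78 and 6.81 in resistant samples. It was at least 1.33-fold lower in resistant cells, taken from the parental mean to the background limit of the resistant arrays (limma adjusted p = 7.68e-07). The other MT1H probe was at background on all 6 arrays, and so was the only MT1M probe, with values of 6.71 to 6.87.

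MT2A, the most widely expressed metallothionein in human tissues, stayed bright. Its signal was 12.86, 12.90 and 12.88 in parental and 12.81, 12.77 and 12.69 in resistant samples. The resistant arrays were all lower, but the difference of -0.13 did not pass (SE 0.0567, limma adjusted p = 0.0768). It passed with an intensity trend in the variance (adjusted p = 0.0490), and the alternatives spanned 0.0490 to 0.246.

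MT1G had the opposite sign. Its signal was 7.71, 7.65 and 7.82 in parental and 7.86, 7.73 and 8.07 in resistant samples. The groups overlapped, and the difference of 0.16 did not pass (SE 0.0809, limma adjusted p = 0.114). Without resistant replicate 2, the lowest resistant array, it was 0.24 and passed (adjusted p = 0.0271), without resistant replicate 3, the highest, it was 0.07 (adjusted p = 0.479), and the alternatives spanned 0.0271 to 0.479.

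The plot of signal by array shows these groups side by side.

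**Figure D1:**
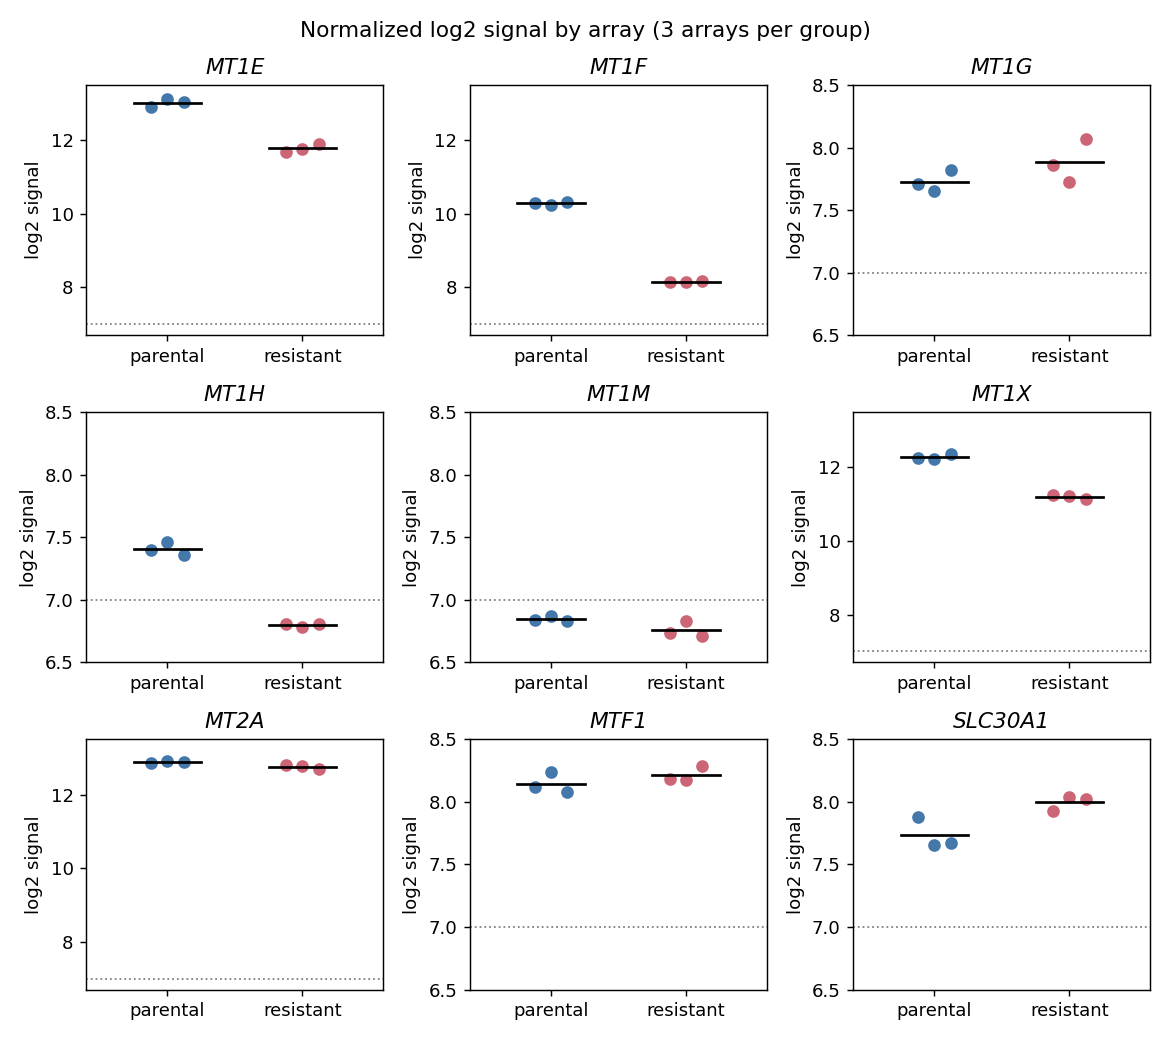
Normalized log2 signal (y axis) of the brightest probe of each gene on the 3 parental and 3 resistant arrays. Points are arrays, bars are group means and the dotted line is the mean background limit; MT1E, MT1F, MT1X and MT2A share 1 scale and the other genes another. MT1F drops from 10.28 to 8.15, whereas MT2A stays between 12.69 and 12.90.

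The metallothioneins above background on every array (MT1E, MT1F, MT1G, MT1X and MT2A) had observed changes of unequal size. For each of the 10 pairs of these genes, the log2 ratio within each array was compared between groups with a two-sided exact permutation test over arrays. For 9 of the 10 pairs the ratio did not overlap between groups, with an exact permutation p = 0.1, the smallest that 3 against 3 arrays allow. It was 0.111 after Benjamini-Hochberg adjustment over the 10 pairs, so no pair could pass. Single genes often did not overlap either, with 29.2% of all genes wholly above and 30.8% wholly below. The pairs reuse the same genes, and no share over pairs of other genes was taken, so the count is only a description. The change of MT1F minus that of MT2A was -2.01 log2 units. The remaining pair was MT1E and MT1X, whose changes differed by -0.16 (exact p = 0.3). A ratio between probes describes relative change and not relative abundance, and whether a probe also reads near-identical copies was not tested.

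**Figure D2:**
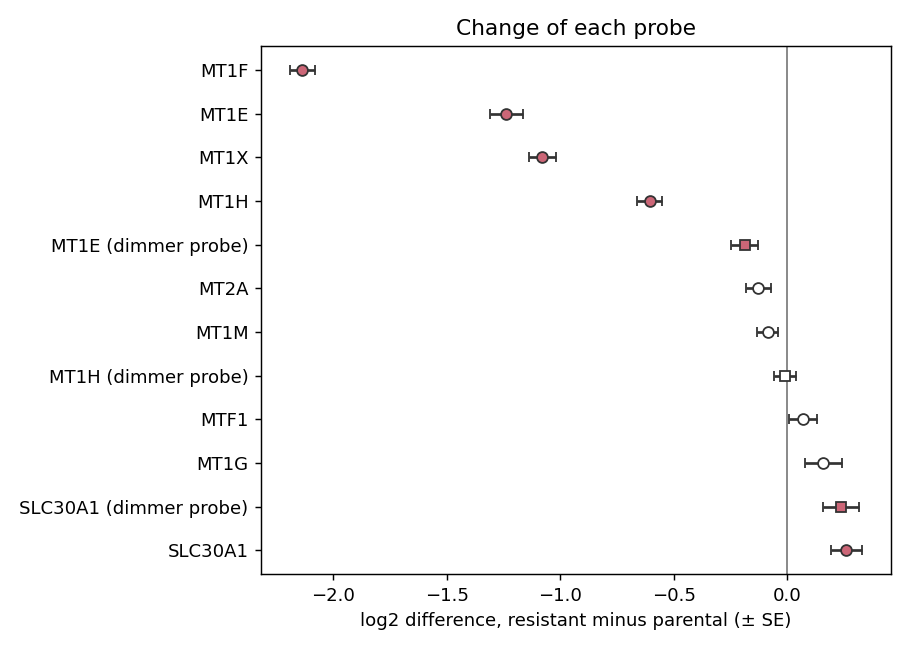
Log2 difference, resistant minus parental (x axis), of all 12 probes, with the SE as bars. Circles are the probes that stand for a gene and squares are dimmer probes. Filled symbols passed the limma test, which for squares was adjusted over all probes. The brighter MT1H probe and the dimmer MT1E probe are at background in resistant cells, so their points are limits. MT1M and the dimmer MT1H probe are at background on all arrays and were not tested, so their points measure no change. Their SE comes from a fit without the filter. The values run from -2.14 for MT1F to 0.26 for SLC30A1.

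The zinc exporter SLC30A1 rose by a small amount. Its brighter probe read 7.88, 7.65 and 7.67 in parental and 7.93, 8.04 and 8.02 in resistant samples, without overlap. The difference was 0.26 (SE 0.0683, limma adjusted p = 0.00537), a 1.20-fold change. Its dimmer probe read 7.53, 7.68 and 7.54 against 7.64, 7.97 and 7.86, with overlap, and a difference of 0.24 (SE 0.0803, limma adjusted p = 0.0254 over all probes). MTF1, the transcription factor, read 8.12, 8.24 and 8.08 against 8.18, 8.18 and 8.29. The groups overlapped and the difference of 0.07 did not pass (SE 0.0622, limma adjusted p = 0.370).

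RefSeq promoter sequences (GRCh38.p14) were at hand for 5 of the 10 genes, MT1H, MT1X, MT2A, MTF1 and SLC30A1. They are shown because MTF1 acts through short elements in such promoters, and because MT1X and MT1H fell, MT2A was not called and SLC30A1 rose. The 250 bases before the annotated start are given 5′ to 3′ on the strand of each gene, for MT1X at chr16:56682220-56682469 (plus strand), MT1H at chr16:56669564-56669813 (plus), MT2A at chr16:56608334-56608583 (plus) and SLC30A1 at chr1:211579162-211579411 (minus). Capitals mark matches to the core of the metal response element, TGCACNC or TGCGCNC, on either strand, where N is any base and a match on the opposite strand appears as its reverse complement.
MT1X: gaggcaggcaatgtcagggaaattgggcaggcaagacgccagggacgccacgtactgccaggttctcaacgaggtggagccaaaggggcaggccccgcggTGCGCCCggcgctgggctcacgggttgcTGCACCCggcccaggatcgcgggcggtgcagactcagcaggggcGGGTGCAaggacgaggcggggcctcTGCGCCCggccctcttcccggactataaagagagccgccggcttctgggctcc
MT1H: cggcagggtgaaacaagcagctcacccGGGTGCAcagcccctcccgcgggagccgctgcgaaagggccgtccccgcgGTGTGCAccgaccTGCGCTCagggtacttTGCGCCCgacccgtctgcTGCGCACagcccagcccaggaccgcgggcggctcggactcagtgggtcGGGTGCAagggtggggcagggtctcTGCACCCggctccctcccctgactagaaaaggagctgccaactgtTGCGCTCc
MT2A: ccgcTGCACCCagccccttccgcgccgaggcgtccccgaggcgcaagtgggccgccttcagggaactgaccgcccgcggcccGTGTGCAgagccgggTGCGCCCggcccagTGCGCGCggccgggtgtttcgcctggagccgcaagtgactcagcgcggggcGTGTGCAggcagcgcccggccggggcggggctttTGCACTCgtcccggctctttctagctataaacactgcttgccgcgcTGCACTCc
SLC30A1: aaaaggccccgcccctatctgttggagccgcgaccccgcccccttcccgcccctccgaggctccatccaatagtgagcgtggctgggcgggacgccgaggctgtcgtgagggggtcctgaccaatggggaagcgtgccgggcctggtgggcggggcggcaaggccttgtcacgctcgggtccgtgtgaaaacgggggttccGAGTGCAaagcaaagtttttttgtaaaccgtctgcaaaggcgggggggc
MT1H held 8 matches, MT2A 7, MT1X 4 and SLC30A1 1, and no matches overlapped each other. MTF1 held 0 matches in these letters. Of 35116 promoters of this length in the table, 24.8% held at least 1 match, 0.370% at least 4, 0.0313% at least 7 and 0.0171% at least 8. The match nearest the start began 8 bases before it in MT1H and MT2A, 53 bases before it in MT1X and 49 bases before it in SLC30A1. A match is a description of the letters and not a binding site.

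In the RefSeq gene order the metallothionein genes follow each other on chromosome 16 as MT4, MT3, MT2A, MT1E, MT1M, MT1A, MT1B, MT1F, MT1G, MT1H and MT1X. MT1F, with the largest fall, lay directly beside MT1G, which was not called (difference 0.16). The metallothionein genes MT1B, MT1L, MT3, MT4 and MT1IP, which are outside the set, were at background on all arrays.

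Genes on both sides of the cluster fell as well. Of the 6 nearest protein-coding genes on each side, 5 were tested and 4 fell, where 27.5% of all genes were called lower. NUDT21, OGFOD1 and BBS2 lay on the MT4 side, and on the MT1X side NUP93 alone fell. NLRC5, an activator of class I antigen presentation genes on the MT1X side, was not called (difference 0.11, limma adjusted p = 0.117). NUDT21, a subunit of the pre-mRNA cleavage factor, read 10.24, 10.28 and 10.28 in parental and 9.32, 9.23 and 9.22 in resistant samples. Its difference was -1.01 (SE 0.0560, limma adjusted p = 5.28e-09). NUP93, a nuclear pore protein gene on the other side of the cluster, read 10.38, 10.40 and 10.27 against 9.44, 9.34 and 9.29. Its difference was -0.99 (SE 0.0621, limma adjusted p = 1.92e-08). OGFOD1, a prolyl hydroxylase of a ribosomal protein, fell by 0.65 and BBS2, a subunit of a ciliary transport complex, by 0.44.

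The shift extended along chromosome 16. Of its 498 tested genes, 63.1% were called lower and 7.03% higher, against 27.5% lower over all genes, and this was the highest share called lower among 23 chromosomes. The next was chromosome 7 with 50.4%. Chromosome 16 was divided at the widest gap between its genes in the RefSeq table. On the side that holds the cluster, 174 of 226 tested genes other than metallothioneins were called lower (77.0%), with a median log2 difference of -0.41, and on the other side 51.1% of 266 with a median of -0.17. This division was chosen after the flanking genes had been seen, and no test was made of it.

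Set beside those 226 neighbours, the metallothioneins above background on every array lay on both sides of their median. No neighbour had a change as low as that of MT1F, which was 1.73 log2 units below their median (-1.73). MT1E and MT1X were 0.83 and 0.67 units below it (-0.83 and -0.67), with 7 and 9 neighbours lower still. The median was not matched for signal level. It includes genes near the floor, such as NLRC5, where changes are compressed, so these distances may be too large for bright probes. MT1H is not placed among them, because its resistant level is only a limit. MT2A and MT1G were above the neighbours' median by 0.28 and 0.57, and 45 and 10 neighbours had a higher change. Most genes on that side of the chromosome had a lower signal in the same comparison. The part of that shift in the falls of MT1F, MT1E and MT1X was not tested.

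**Figure D3:**
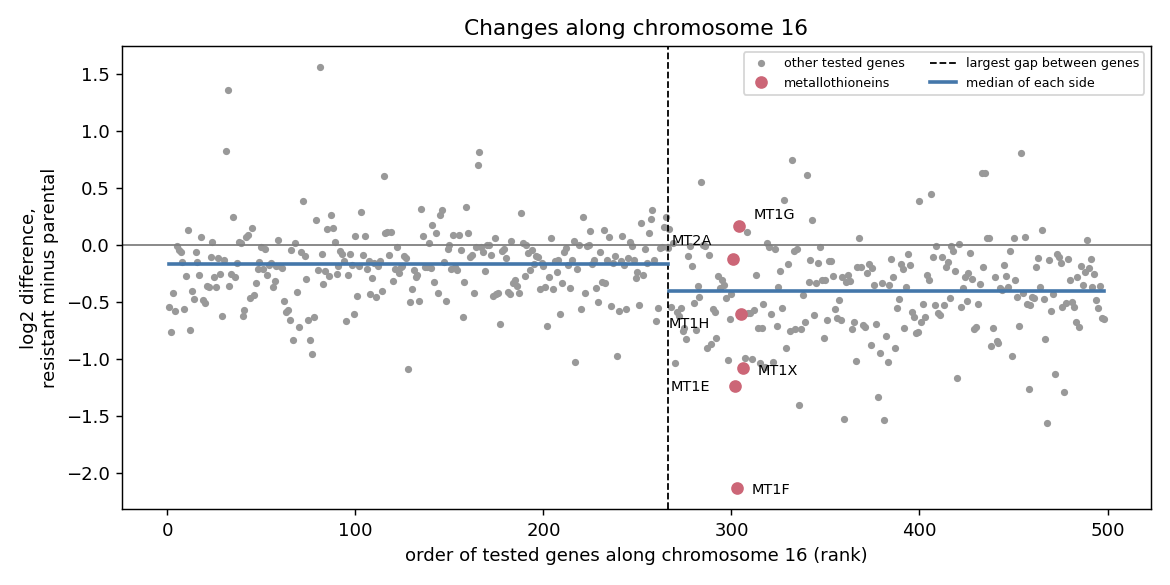
Log2 difference, resistant minus parental (y axis), of the 498 tested genes of chromosome 16 in their order along it (x axis, rank). Grey points are other genes, red points metallothioneins, the dashed line the widest gap between genes and the blue bars the medians of each side without metallothioneins, -0.17 and -0.41. MT1F is the lowest of all points at -2.14.

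Of the 11042 other genes tested, the 5 whose profiles over the 6 arrays were most like the mean profile of the 5 metallothioneins above background were CIAPIN1, SNORD13, SIAH1, SVEP1 and KLHDC8B. Their Pearson r ran from 0.9995 to 0.9999, given as a description over 6 arrays in 2 groups, and 1386 genes exceeded 0.95. Of the 5 metallothioneins in that mean, MT2A and MT1G were not called, so likeness to the mean is not likeness to each. CIAPIN1 and SIAH1 are also genes of chromosome 16, on the side of the metallothionein cluster, where 226 of the 11042 genes compared lay. SNORD13, SVEP1 and KLHDC8B are genes of chromosomes 8, 9 and 3. No test was made of these positions. CIAPIN1 read 9.01, 9.03 and 9.07 in parental and 8.30, 8.28 and 8.33 in resistant samples.

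The other zinc transporters were called about as often as genes in general. Of 10 further genes listed as zinc exporters, 5 were tested; 2 rose and 1 fell, beside 26.6% higher and 27.5% lower over all genes, with a median log2 difference of 0.03 where all genes had a median of -0.01. SLC30A9, a mitochondrial zinc transporter, rose by 0.47 (SE 0.0676, limma adjusted p = 4.99e-05), and SLC30A7, of the secretory pathway, rose by 0.29 (SE 0.0668, limma adjusted p = 0.00256). SLC30A5, also of the secretory pathway, fell by 0.25 (limma adjusted p = 0.0118), but its probes disagreed. Its other probes above background differed by 0.11 and 0.12, the mean of its probes gave -0.0084 (adjusted p = 0.905), and without parental replicate 1 or 2 another probe was the brightest and the difference was 0.06 or 0.14. Without resistant replicate 3 the call was lost (adjusted p = 0.0597), and over the alternatives the adjusted p ran from 0.00282 to 0.905. SLC30A6 differed by -0.05 (limma adjusted p = 0.483). SLC30A2, SLC30A4, SLC30A8, SLC30A10 and TMEM163 were at background on all arrays.

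Of 14 zinc importers of the SLC39 family, 10 were tested; 3 rose and 2 fell, near the shares of 26.6% and 27.5% over all genes, with a median log2 difference of -0.0071. SLC39A8 (ZIP8), a plasma membrane importer of zinc, manganese and cadmium, changed the most. It read 8.27, 8.45 and 8.36 in parental and 9.14, 9.10 and 9.21 in resistant samples. The difference was 0.79 (SE 0.0625, limma adjusted p = 1.96e-07), and its other probe rose by 0.71. SLC39A10, a plasma membrane importer, rose by 0.45 (SE 0.0550, limma adjusted p = 1.24e-05) and SLC39A9 by 0.47 (SE 0.118, limma adjusted p = 0.00415). SLC39A9 read 7.72, 8.33 and 7.90 in resistant samples, and without resistant replicate 2, the highest, its difference was 0.30 and still passed. SLC39A1, a plasma membrane importer found in most tissues, read 10.33, 10.41 and 10.30 against 9.90, 9.85 and 9.94. It fell by 0.45 (SE 0.0572, limma adjusted p = 1.75e-05), and SLC39A4, the importer of dietary zinc in the gut, fell by 0.24 (limma adjusted p = 0.00517).

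**Figure D4:**
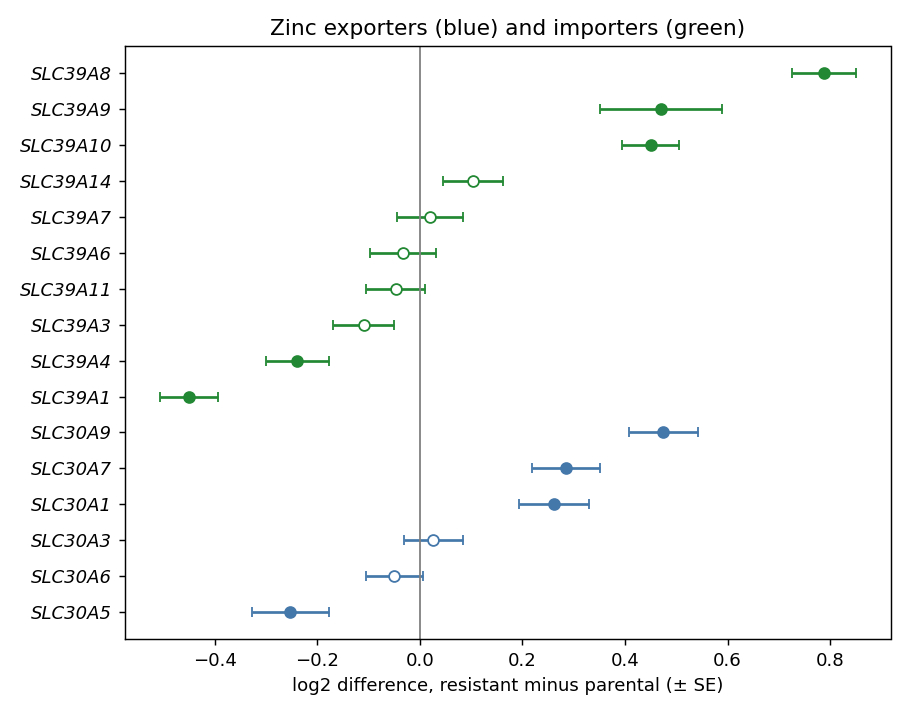
Log2 difference, resistant minus parental (x axis), of the tested zinc exporters (blue, SLC30 family with SLC30A1) and importers (green, SLC39 family), with the SE as bars. Filled points passed the limma test; the values run from -0.45 for SLC39A1 to 0.79 for SLC39A8, with rises and falls in both families.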

How the data were processed

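The 6 samples were grouped by their titles. The authors deposited normalized log2 signals, 1 per probe and sample. Which software, background treatment and normalization they used is not given in the sources used here. Base 2 was inferred from the range of the values. Sorted values differed by at most 0.00434 between arrays, as after quantile normalization, so a change is relative to the rest of the array. Another deposited table was not used, because no name ties its 12 per-sample columns to a sample.

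Of 47230 probes 30112 had 1 gene symbol in the platform annotation, 8 several, and 17110 were not listed there. Named probes above the background limit on at least 3 arrays numbered 14737, giving 11050 genes (brightest probe each). Resistant and parental arrays were compared with limma 3.58.1 in R 4.3.3 (lmFit, eBayes, no replicate block, 4 residual and 9.09 prior degrees of freedom), with Benjamini-Hochberg adjustment over all genes. The script was tested on simulated data. Precision is limited by the number of arrays.

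The members and gene lists were chosen with earlier results of these data known. Named genes are all members, up to 4 genes per related list with the smallest adjusted p (all called SLC39 genes), and the 5 most alike in profile; flanking genes were added later. Coordinates and gene order come from RefSeq (GRCh38.p14); the deposited files name no build.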

Additional observations from a re-analysis of the deposited data

How the results depend on the processing

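Of 47 genes named and followed through up to 15 alternatives (4 filter and probe choices, cyclic loess, subtraction of the background mode, an intensity trend, array weights, a replicate block and 6 fits without 1 array), 43 kept direction and call in all that gave a value. The exceptions were MT2A, MT1G and SLC30A5, given above, and NLRC5, which passed after subtraction of the background mode (0.80, adjusted p = 0.0490). The number of the set's genes called higher went from 1 to 2 with the replicate block (MT1G, adjusted p = 0.0376) and counting each probe on its own (both SLC30A1 probes), and was 1 to 2 over the fits without 1 array. SLC30A5 ranged from -0.32 to 0.14 without 1 array, reversing to 0.06 and 0.14 without parental replicate 1 or 2. Same-numbered arrays deviated together at r = 0.15, 0.0030 and 0.087, and unlike-numbered ones at r = -0.20 to 0.13. Such small values cannot decide whether the numbers pair the samples. The block gave 2995 genes higher and 3091 lower, against 2938 and 3042. Values near the floor are compressed: with the background mode subtracted, the log2 differences of MT1F, MT1H and SLC30A1 were -2.72, -2.54 (at the floor set for this alternative) and 0.51. The chromosome 16 count of 174 ranged from 164 to 174 without 1 array. MT1H could not be tested under the strict filter. Dim probes limit MT1H, MT1M and the second MT1E probe.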

Other observations

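Most iron handling genes tested had a higher signal in resistant cells. Of 12 listed 9 were tested, 7 rose and 2 fell, beside 26.6% higher and 27.5% lower over all genes. CYBRD1, a membrane ferric reductase, rose by 0.79, the ferritin light chain gene FTL by 0.56 and the transferrin receptor gene TFRC by 0.53, while PCBP1, an iron chaperone, fell by 0.42 (limma adjusted p = 3.23e-07, 3.70e-06, 2.11e-06 and 2.27e-05). Of 11 tested copper handling genes 3 rose and 4 fell, where 26.6% of all genes rose and 27.5% fell; the same shares stand beside the counts of the lists that follow. ATOX1, the copper chaperone that delivers copper to the ATP7 pumps, read 10.57, 10.49 and 10.45 in parental and 11.27, 11.31 and 11.35 in resistant samples, a rise of 0.81 (limma adjusted p = 6.61e-08). The metalloreductase genes STEAP2 and STEAP3 fell by 0.51 and 0.49, and the low-affinity copper transporter gene SLC31A2 by 0.33.

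Glucocorticoids and metal or protein stress also induce metallothioneins. Of 8 tested glucocorticoid response genes 4 rose and 2 fell: KLF9, CRISPLD2 and ERRFI1 rose by 0.86, 0.80 and 0.50, and FKBP5 fell by 0.36 (limma adjusted p = 1.17e-07, 2.19e-07, 3.76e-05 and 3.25e-04). Of 9 tested metal and proteotoxic stress genes 3 rose and 4 fell. TXNRD1, thioredoxin reductase, rose by 0.75, whereas the heat shock genes HSPA1A and HSPA1B, near-identical copies that the probes may not tell apart, and the co-chaperone gene BAG3 fell by 0.71, 0.47 and 0.55.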
